A study of Mus musculus with 15 samples.

Results

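Cyfip2 and 7 other genes of the WAVE complex, Cyfip1, Wasf1, Wasf2, Nckap1, Abi1, Abi2 and Brk1, were followed through 15 RNA-seq libraries of NMuMG cells, a mouse mammary gland epithelial line. The 8 genes were chosen by symbol around Cyfip2, which had been picked for its low value after knockout (KO) of FAM3C, with Cyfip1 as its paralog. All 8 were listed in both deposited tables, among 13893 genes in Dataset 1 and 15023 genes in Dataset 2. In shPCBP1 cells, the RNA-binding protein PCBP1 was knocked down with a lentiviral shRNA. Dataset 1 held 11 libraries, every one of them from shPCBP1 cells: 4 shPCBP1 libraries (the unaltered line and 3 control, CT, clones that had received Cas9 without a gene-specific guide), 3 FAM3C KO clones (genotype FAM3C -/-), 3 LIFR KO clones (LIFR -/-) and 1 FAM3C/LIFR double KO. FAM3C is a secreted protein and LIFR is the receptor of leukemia inhibitory factor. Each KO library came from a line grown from a single clone after a short coding stretch had been cut out with paired guides, so the replicates of a KO were different clones. Dataset 2 held 2 libraries of NMuMG cells labelled as wild type with no treatment and 2 libraries of shPCBP1 cells, with nothing in the labels to say whether they were separate cultures, so that its p-values measure only the spread between these libraries. Values are read counts scaled to a common library size (CPM), and the 2 tables were normalised apart, so levels were compared within a table only.

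The WAVE complex is a regulator of the actin cytoskeleton. One WAVE protein (the product of Wasf1 or Wasf2) carries the domain that switches on the Arp2/3 complex, which starts new branched actin filaments at the edge of a moving cell. A CYFIP protein and Nckap1 form the large regulatory part that holds the WAVE protein inactive until the small GTPase Rac1 binds CYFIP, while an Abi protein and Brk1 complete the assembly. CYFIP1 and CYFIP2 are alternative subunits, and both also bind the RNA-binding protein FMRP.

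Because the CYFIP genes are paralogs, their transcripts were compared first, to show how far reads could be split between them. The coding sequences in GENCODE M21 (build GRCm38) were each 3762 bases long and were identical at 77.7% of the 3759 aligned positions. The longest run shared exactly was 24 bases, and none of the 3732 windows of 31 bases in Cyfip2 occurred in Cyfip1, against a read length of 150 bases. The stretch around that run is shown because it holds the longest exact match, with capitals at the 13 of 64 positions that differ. Untranslated parts of the transcripts were not compared. It lies in coding exon sequence, in exon 11 of either transcript, at chr7:55887833-55887896 on the plus strand for Cyfip1 and at chr11:46270595-46270658 on the minus strand for Cyfip2.
Cyfip1: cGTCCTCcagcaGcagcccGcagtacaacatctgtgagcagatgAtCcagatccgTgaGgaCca
Cyfip2: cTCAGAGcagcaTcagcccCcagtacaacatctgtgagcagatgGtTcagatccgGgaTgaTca

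Cyfip2 (ENSMUSG00000020340) lies on chromosome 11 at 46193850 to 46312859 (GRCm38, minus strand), and Cyfip1 (ENSMUSG00000030447) on chromosome 7 at 55841745 to 55932602 (plus strand). The promoter of Cyfip2 is given because it starts the WAVE gene that was near the lowest listed value in KO clones. It runs from 250 bases before to 50 bases after a start listed in RefSeq, at chr11:46312309-46312608 on the minus strand (GRCm38.p6). This start differs from that of the gene in GENCODE M21, 46312859, and the window lies wholly inside the gene given above. Capitals mark each CG pair.
Cyfip2 promoter: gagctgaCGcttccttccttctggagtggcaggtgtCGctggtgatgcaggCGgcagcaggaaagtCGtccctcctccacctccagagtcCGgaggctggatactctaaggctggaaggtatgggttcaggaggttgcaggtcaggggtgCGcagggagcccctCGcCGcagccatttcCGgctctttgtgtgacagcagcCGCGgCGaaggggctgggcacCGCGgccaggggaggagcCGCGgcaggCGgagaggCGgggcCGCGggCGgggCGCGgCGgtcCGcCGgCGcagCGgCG
The window held 29 CG pairs, more than 87.1% of 32851 mouse promoters of the same length (median 7). It was not alone in this among the WAVE genes in the table: Wasf2 also had 29 CG pairs, Brk1 27, Wasf1 17, and the 2 listed starts of Abi1 10 and 12. Motifs were searched by their letters on both strands. The window held 1 GC box (GGGCGG, found in 35.7% of all promoters) and 1 E-box (CANNTG, in 72.3%), and neither the STAT motif TTCNNNGAA (in 8.3%) nor TATAAA (in 13.6%).

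A few facts of the whole series bear on the values below. In Dataset 1, LIFR KO clones 2 and 3 and the double KO stood apart: the Spearman correlation between a gene's GC content and its deviation in the library was -0.757 to -0.702 in these 3 libraries and -0.286 to 0.24 in the other 8, and mitochondrial genes took 7.16 to 8.58% of the listed CPM against 3.14 to 4.06%. If the lowest listed value stands for 1 read, the totals were 21348271 to 24043316 reads in these 3 and 16031859 to 46901675 in the others. The targeted genes checked the labels only weakly, since counts over a whole gene need not read a short excision: Fam3c was at 26.4 to 42.9 CPM in FAM3C KO and 47.0 to 59.4 in shPCBP1 cells, whereas Lifr was at 14.6 to 34.9 CPM in LIFR KO and 25.8 to 40.2 in shPCBP1 cells, with overlap. Pcbp1 was at 287 and 312 CPM in NMuMG and 14.1 and 14.2 CPM in shPCBP1 cells of Dataset 2. Of the 10 mesenchymal markers all were listed, with a summed level of 598 to 617 CPM in NMuMG and 1635 to 1664 CPM in shPCBP1 cells of Dataset 2, and their part in the differences of the WAVE genes there was not tested. In Dataset 1 that sum was 2110 to 2372 CPM in shPCBP1, 2382 to 2566 in FAM3C KO and 1617 to 2221 in LIFR KO. The FAM3C KO sums lay above every shPCBP1 library, as was so for 10.1% of single genes tested. Log2 differences of the 10 markers ran from -0.21 to 0.78 in FAM3C KO. None of the 10 passed the threshold in either KO, and their part in the Cyfip2 values was not tested. Of 11 epithelial markers, 6 were listed in Dataset 1 (summed level 2060 to 2495 CPM in shPCBP1, 1943 to 2680 in FAM3C KO and 1220 to 1859 in LIFR KO) and 8 in Dataset 2. The LIFR KO sums lay below every shPCBP1 library, as was so for 13.2% of single genes tested. Of 5 tested, Krt18 alone passed the threshold in LIFR KO (-0.72, limma, adjusted p = 0.0663), where 5.55% of all genes were called lower. Krt8 had a larger difference and fell just short of the threshold (-0.96, limma, adjusted p = 0.0701). Cdh1, Ocln and Tjp1 were at -0.04, -0.05 and 0.04. Krt18 did not pass with a correction for GC content (-0.22, adjusted p = 0.54). Markers of blood, endothelial and neural cells summed to at most 4.202, 2.24 and 1.20 CPM in any library.

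Cyfip2 was the WAVE gene that differed most between control lines. CT clones 1, 2 and 3 held 77.5, 18.5 and 29.6 CPM and the unaltered line 7.92 CPM, a 9.79-fold range (mean 33.4 ± 30.7 CPM, SD, n = 4). The SD of its log2 values between these 4 lines was 1.37, larger than that of 99.0% of the 12621 genes tested (median 0.13). Its paralog was flat over the same lines. Cyfip1 was at 119, 109 and 124 CPM in CT clones 1, 2 and 3 and at 111 CPM in the unaltered line, with an SD of 0.09. The SDs of the other 6 genes ran from 0.03 for Wasf2 to 0.20 for Abi1. Among lines with the same knockdown and no KO, the spread of Cyfip2 was thus well above that of each other WAVE gene.

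In FAM3C KO cells, Cyfip2 was at 0.354, 0.240 and 0.115 CPM in clones 1, 2 and 3. These are 8, 6 and 3 times the lowest value listed for the respective library, and every one lies below the lowest shPCBP1 line. The difference from the 4 shPCBP1 libraries was -6.24 ± 1.12 (SE) in log2(CPM + 0.1), and -4.37 with a pseudocount of 1 CPM, since differences of genes near the lowest listed value depend on it. Cyfip2 was chosen for this contrast, so the difference is a description and carries no test. In RNA from whole cultures, fewer cells with the transcript and less transcript per cell cannot be told apart. Of the 8 genes, 1 passed the threshold in this contrast (adjusted p under 0.07 in limma, the level the study used), where 0.309% of all genes tested did (0.0872% higher and 0.222% lower), and 1 had groups that did not overlap, where 22.7% of all genes did (10.1% higher and 12.5% lower). That gene was Cyfip2 both times, and since it was chosen for this contrast nothing is read from these counts.

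**Figure D1:**
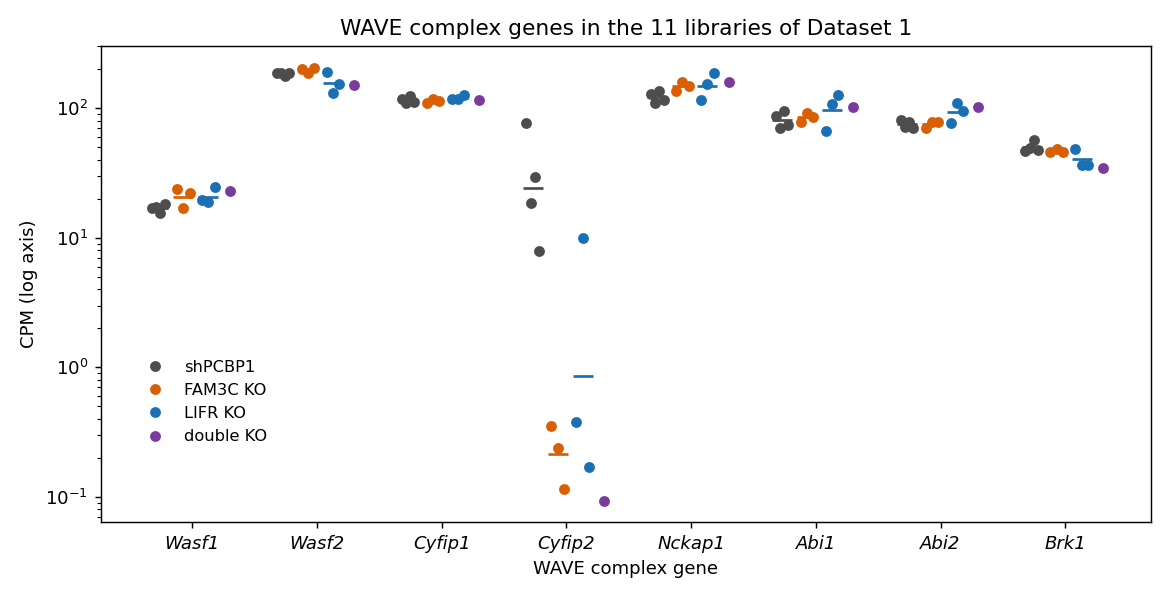
CPM of the 8 WAVE complex genes (log axis) in the 11 libraries of Dataset 1, with a point per library and a bar at the geometric mean of each group with more than 1 library. Cyfip2 lies at 7.92 to 77.5 CPM in the shPCBP1 libraries and at 0.0937 to 0.376 CPM in 6 of the 7 KO libraries, while Cyfip1 stays between 109 and 127 CPM.

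The other 7 genes of the complex showed nothing of this size in FAM3C KO. The genes of the activating subunit, Wasf1 and Wasf2, were at 23.6, 16.998 and 22.3 CPM and at 200.3, 185.5 and 206 CPM in clones 1 to 3, against 15.6 to 18.1 and 178.7 to 185.9 CPM in shPCBP1 cells. Cyfip1 was at 110, 117 and 115 CPM, within the range of the control lines. Nckap1, the partner of CYFIP in the complex, was at 135, 160 and 149 CPM against 110 to 136 CPM. The log2 differences of these 7 genes ran from -0.09 for Brk1 to 0.29 for Wasf1, and that of Cyfip1 was -0.02 ± 0.08 (SE). The median over all 8 genes was 0.04 and over all genes tested -0.01.

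In LIFR KO cells, clones differed in Cyfip2. Clones 1 and 3 were at 0.376 and 0.172 CPM, 7 and 4 times the lowest listed value, while clone 2 was at 9.90 CPM, above the 7.92 CPM of the unaltered line. The groups therefore overlapped. The log2 difference from shPCBP1 was -4.48 ± 1.12 (SE; limma, adjusted p = 0.0558), the only 1 of the 8 genes past the threshold, where 6.47% of all genes were, 0.911% with a higher and 5.55% with a lower level. An exact two-sided permutation test over the 3 and 4 libraries gave p = 0.114, with 0.0286 the smallest p this design allows. The 4 control libraries are those of the FAM3C KO contrast in which Cyfip2 was chosen, so their high values are common to both. Leaving out any 1 of the 4 shPCBP1 libraries ended the call (adjusted p = 0.103 to 0.135), as did leaving out LIFR KO clone 3 (adjusted p = 0.124) or any of the 3 FAM3C KO clones, which lend their spread to the fit (adjusted p = 0.0739 to 0.0896). The GC correction ended it as well (-4.18, adjusted p = 0.135). Without LIFR KO clone 2, the difference was -6.08 (adjusted p = 0.0397).

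The double KO library, which has no replicate, held Cyfip2 at 0.0937 CPM, or 2 times the lowest value listed for it. Over the 7 KO libraries, 6 had Cyfip2 at 0.0937 to 0.376 CPM and 1, LIFR KO clone 2, did not. Cyfip2 was low in LIFR KO clone 1, whose library lacked the GC shift, as well as in clone 3 and the double KO, whose libraries had it. After a loess correction of each library for GC content, the log2 deviations from the shPCBP1 mean were -5.60, -0.83 and -6.09 in LIFR KO clones 1, 2 and 3 and -6.55 in the double KO.

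Levels of the paralogs were set side by side per length, with the CPM of the whole gene used each time. Per kb of coding sequence, Cyfip1 was at 29.1 to 33.0 CPM and Cyfip2 at 2.11, 20.6, 4.93 and 7.87 CPM in the unaltered line and CT clones 1, 2 and 3. Cyfip2 thus made up 6.66, 39.5, 14.5 and 19.3% of the summed CYFIP level per coding kb in these 4 lines. The coding sequences are equally long, so this share is that of the CPM with no correction for length. In FAM3C KO clones 1, 2 and 3 this share was 0.32, 0.204 and 0.101%, in LIFR KO clones 1, 2 and 3 it was 0.32, 7.72 and 0.135%, and in the double KO 0.0803%. Merged exons are 11.94 kb long for Cyfip1 and 7.103 kb for Cyfip2. Per kb of these, the share was 10.7, 52.3, 22.2 and 28.6% in the unaltered line and CT clones 1, 2 and 3. It was 0.537, 0.342 and 0.169% in FAM3C KO clones 1, 2 and 3. In LIFR KO clones 1, 2 and 3 it was 0.537, 12.3 and 0.227%, and in the double KO 0.135%. Cyfip1 varied little over these libraries: the LIFR KO clones 1, 2 and 3 held 117, 118 and 127 CPM (log2 difference 0.06 ± 0.08, SE, limma, adjusted p = 0.624) and the double KO 117 CPM. No library with little Cyfip2 had Cyfip1 above 127 CPM, against 124 CPM in CT clone 3.

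Wasf1 was the only member whose LIFR KO clones all lay above every shPCBP1 library (3.95% of all genes tested did so, and 17.2% had groups that did not overlap in either direction). WAVE1, its product, is best known from neurons, where it works at the synapse and in axons. Its level was 19.6, 18.8 and 24.5 CPM in LIFR KO clones 1, 2 and 3 against 18.1, 17.1, 17.3 and 15.6 CPM in the unaltered line and CT clones 1, 2 and 3. The log2 difference of 0.29 ± 0.14 (SE) did not pass the threshold (limma, adjusted p = 0.168), and the exact permutation test gave p = 0.0571. The double KO was at 23.0 CPM, also above the controls. With the GC correction the log2 difference was 0.53 (adjusted p = 0.119).

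For the other 5 genes, the 2 LIFR KO clones with the GC shift lay apart from clone 1. Abi1 and Abi2, adaptors with AT-rich transcripts (41.0 and 42.6% GC), were at 108 and 125 CPM and at 111 and 95.8 CPM in clones 2 and 3. In clone 1 they were at 66.5 and 76.8 CPM, and in the 4 shPCBP1 lines at 70.2 to 94.99 and 70.05 to 80.8 CPM. Nckap1 (45.9% GC) had 115, 153 and 189 CPM in clones 1, 2 and 3. Brk1, the smallest subunit (50.2% GC), was at 48.5 CPM in clone 1 and at 36.6 and 36.8 CPM in clones 2 and 3, and Wasf2 (54.4% GC) was at 191, 131 and 154 CPM. None of these 5 genes passed the threshold over the 3 clones (adjusted p = 0.113 to 0.363 in limma). With clone 1 left out, all 5 did, as did 7234 of 12612 genes. Abi1, Abi2 and Nckap1 were then at 0.52, 0.45 and 0.47 and Brk1 and Wasf2 at -0.44 and -0.37 in log2. Cyfip1 (46.1% GC) and Wasf1 (50.2% GC) did not pass in that fit. Their log2 deviations from the shPCBP1 mean in clones 2 and 3 were 0.03 and 0.13 for Cyfip1 and 0.14 and 0.52 for Wasf1. With clones 2 and 3 left out, Abi1, Nckap1 and Wasf2 turned to -0.29, -0.09 and 0.05, and with the GC correction Wasf2 turned to 0.19. The same correction took Abi1 from 0.25 to 0.01, Abi2 from 0.31 to 0.15 and Brk1 from -0.31 to -0.07, and Nckap1 was at 0.28 with and without it. The part of the GC shift in these differences was not tested beyond that.

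**Figure D2:**
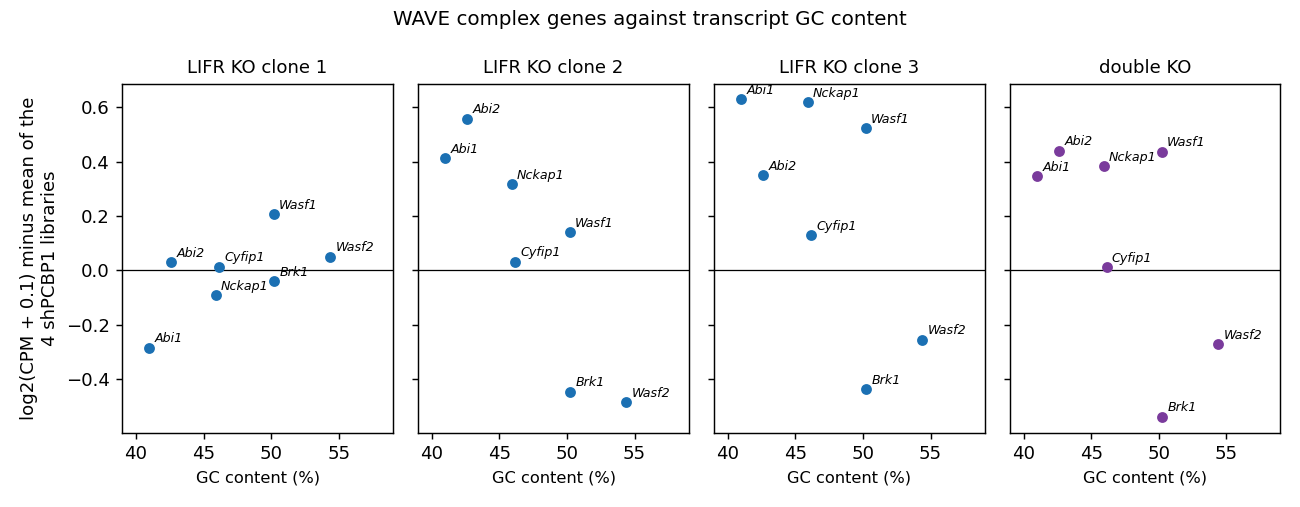
Deviation of 7 WAVE genes from the mean of the 4 shPCBP1 libraries (log2(CPM + 0.1)) against the GC content of the longest transcript (%), in the 3 LIFR KO clones and the double KO, with a point per gene and Cyfip2 left out. In LIFR KO clone 2 the genes run from 0.56 for Abi2 at 42.6% GC to -0.49 for Wasf2 at 54.4% GC, whereas in clone 1 Abi1, at 41.0% GC, is the lowest at -0.29.

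The genes around Cyfip2 were read next, since the clones differed so much at this gene. Of 10 other listed genes with a start within 1 Mb of it, 9 reached the level filter (a mean of 0.5 CPM) and none passed the threshold in either KO contrast of Dataset 1, where 0.309% of all genes did in FAM3C KO and 6.47% in LIFR KO. Fndc9, a gene of a fibronectin type III domain protein, lies wholly inside intron 23 of Cyfip2 on the opposite strand (46235531 to 46239872), with none of its 2290 exon bases in a Cyfip2 exon. CT clones 1, 2 and 3 held 11.002, 3.39 and 4.71 CPM of it and the unaltered line 1.87 CPM, the same order as Cyfip2. Its level was 0.0886, 0.360 and 0.0384 CPM in FAM3C KO clones 1, 2 and 3, then 0.107, 2.54 and 0.0858 CPM for the same numbers of LIFR KO, and the double KO was at the lowest listed value, 0.0468 CPM. Its adjusted p in LIFR KO was 0.0721 (limma). The kit was directional, but the strand setting of the counting was not given in the sources used here, so reads of Fndc9 and of the Cyfip2 intron around it cannot be told apart. Adam19, a cell-surface metalloprotease gene that ends 46.5 kb past the end of Cyfip2, was low throughout. Its level was 1.07, 0.480 and 0.369 CPM in CT clones 1, 2 and 3 and 0.2495 CPM in the unaltered line, and it was at its library's lowest value in 6 of the 7 KO libraries, all but FAM3C KO clone 2 (0.120 CPM). It did not reach the level filter. Farther out, Clint1, an adaptor of vesicle transport, was at 137 to 146 CPM in shPCBP1 and 133 to 141 CPM in the 6 single KO clones. Med7, Thg1l, Lsm11 and Gm12166 differed by -0.15 to 0.00 in log2 between FAM3C KO and shPCBP1, and the TIM family genes Havcr1, Havcr2 and Timd2 varied between clones in both directions. Around Cyfip1, the 4 neighbours tested (Herc2, Nipa1, Nipa2 and Tubgcp5) differed by -0.12 to 0.00 in FAM3C KO and by -0.16 to 0.33 in LIFR KO, again with none past the threshold.

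**Figure D3:**
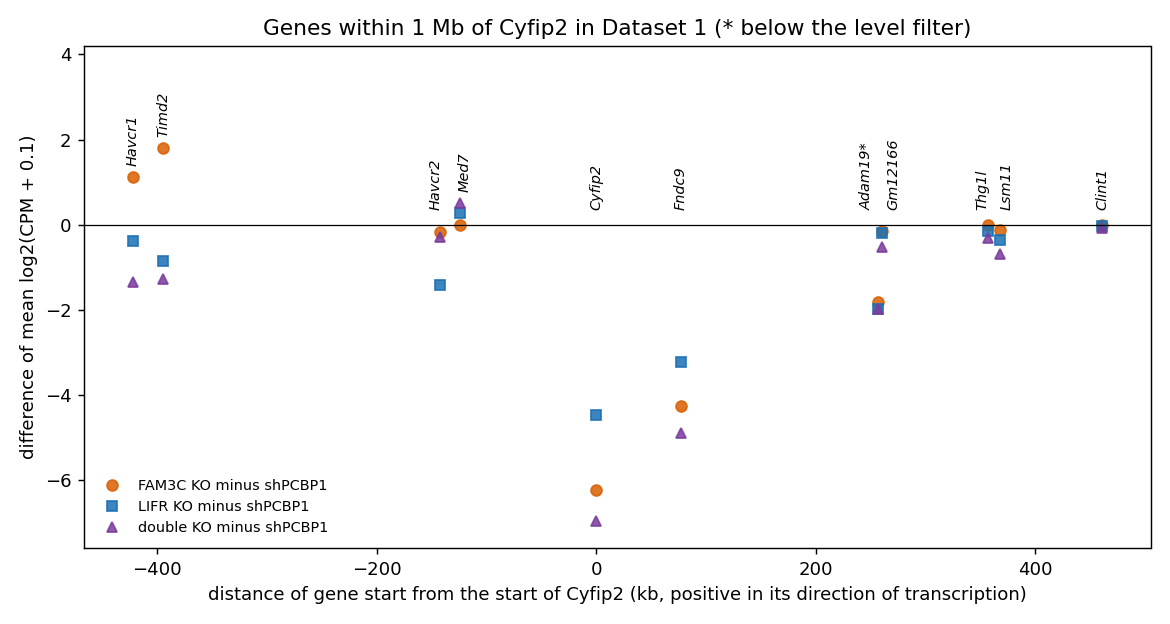
Difference of mean log2(CPM + 0.1) from the 4 shPCBP1 libraries for Cyfip2 and the 10 listed genes within 1 Mb, by the distance of their start from the start of Cyfip2 (kb, positive in its direction of transcription), in FAM3C KO, LIFR KO and the double KO. Cyfip2 and Fndc9 have the lowest values, at -6.24 and -4.26 in FAM3C KO, whereas Clint1 lies at -0.01.

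Over the 11 libraries of Dataset 1, Fndc9 also had the pattern most like that of Cyfip2, with a Pearson r of 0.985 on log2(CPM + 0.1) among 12599 genes. It was followed by Arc (0.965), an immediate early gene of neurons, Ccdc149 (0.943), the ubiquitin ligase gene Peli2 (0.920) and the transcription factor gene Sox5 (0.915). Arc was at 5.24 to 10.7 CPM in shPCBP1 cells, 0.307 to 0.841 CPM in FAM3C KO and 0.257 to 2.25 CPM in LIFR KO. The 11 libraries share control lines and clones, and these values are a description with no test. None of the other WAVE genes was near this: their r ran from -0.764 for Wasf1 to 0.405 for Brk1, with Cyfip1 at -0.002.

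Dataset 2 gives the same genes in shPCBP1 against NMuMG cells. The labels call these controls untreated, whereas the text of the study names controls with a scrambled shRNA, so the knockdown and the transduction itself cannot be told apart here if the labels hold. Cyfip2 was listed at 0.0001 CPM in both NMuMG libraries, the lowest value of the table, which stood for 1105 and 1142 genes there and takes the place of 0. In the shPCBP1 libraries it was at 1.31 and 1.07 CPM, above the lowest listed value in both. It reached the level filter only through those 2 libraries, and no fold is given against a group at 0. The share of Cyfip2 in the summed CYFIP level was 4.81 and 3.86% per coding kb in these libraries, and 7.84 and 6.33% per kb of merged exons. Fndc9 was listed at 0.0001 and 0.0190 CPM in NMuMG and at 0.358 and 0.462 CPM in shPCBP1 cells. All 8 neighbours of Cyfip2 tested passed the threshold here, as did 80.1% of all genes. Of the 8, 7 were higher, where 42.1% of all genes were. Among these 7, Timd2 was at 6.16 and 6.84 against 0.319 and 0.189 CPM and Havcr2 at 1.86 and 2.00 against 0.142 and 0.151 CPM. Like Cyfip2, the genes Timd2, Havcr1 and Havcr2 reached the level filter only through the shPCBP1 libraries, so nothing is read from their direction.

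The 7 other WAVE genes shifted by small amounts, and all passed the threshold (limma, adjusted p from 2.92e-06 to 0.0184), as did 80.1% of all genes tested (42.1% higher and 38% lower). With the fold required to be at least 1.5 as well, which 31.1% of all genes met (16% higher and 15.1% lower), none of the 7 remained. Wasf2 was at 103 and 101 CPM in NMuMG and at 121 and 122 CPM in shPCBP1 (0.25 ± 0.02 in log2, SE). Wasf1 was at 5.17 and 5.11 against 7.45 and 6.78 CPM (0.46 ± 0.09). Both genes of the activating subunit were thus higher in shPCBP1 cells. Cyfip1 was lower, at 31.01 and 31.4 CPM in NMuMG and 25.9 and 26.7 CPM in shPCBP1 (-0.25 ± 0.04, adjusted p = 0.00011). Nckap1 was at 34.1 and 36.0 against 32.7 and 32.0 CPM (-0.11 ± 0.04, adjusted p = 0.0184), a call that was lost without NMuMG replicate 2 or without either shPCBP1 library (adjusted p = 0.125, 0.0837 and 0.151). The adaptors rose together, Abi1 from 23.2 and 22.8 to 29.4 and 30.8 CPM (0.39 ± 0.04) and Abi2 from 16.0 and 17.03 to 21.3 and 20.6 CPM (0.34 ± 0.05). Brk1 fell from 65.3 and 67.3 to 57.0 and 55.6 CPM (-0.24 ± 0.03). In each of the 8 genes the 2 groups did not overlap, as was so for 89% of all genes tested (46.3% higher and 42.6% lower). An exact permutation of 2 against 2 libraries gives 0.333 as its smallest p. The median log2 difference of the 7 genes was 0.25 and that of all genes 0.02.

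**Figure D4:**
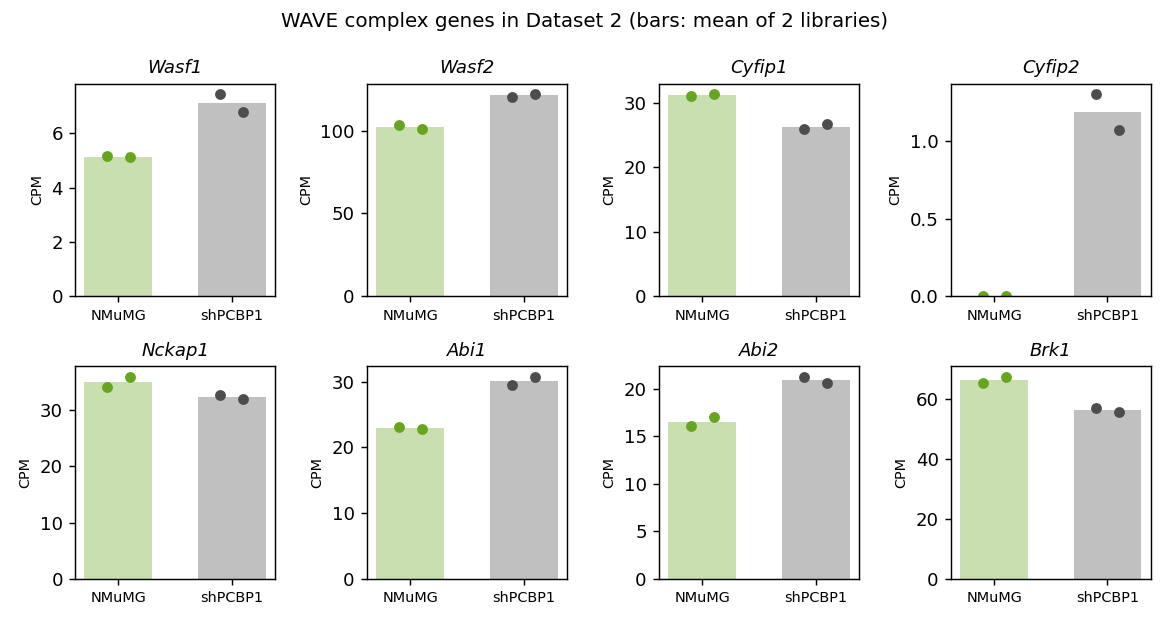
CPM of the 8 WAVE complex genes in Dataset 2, with a point per library and a bar from 0 to the mean of the 2 libraries of NMuMG and of shPCBP1 cells. Cyfip2 goes from 0.0001 CPM to 1.31 and 1.07 CPM, and Cyfip1 from 31.01 and 31.4 to 25.9 and 26.7 CPM.

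Within the complex, the order of the levels per kb of merged exons was led by Brk1 in both datasets. In the 4 shPCBP1 lines of Dataset 1, Brk1 was at 42.5 to 52.1 CPM per kb, followed by Wasf2 (28.6 to 29.7), Nckap1 (22.2 to 27.5), Abi1 (17.4 to 23.6), Cyfip1 (9.16 to 10.4), Abi2 (8.20 to 9.46) and Wasf1 (5.47 to 6.34). The ranges of Nckap1 and Abi1 overlapped, as did those of Cyfip1 and Abi2. Cyfip2 had the lowest mean, but its range, 1.12 to 10.9 CPM per kb, took in those of Wasf1, Abi2 and Cyfip1.

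Genes that act with the complex were read from lists, of which none had a member past the threshold in FAM3C KO, where 0.309% of all genes were. The log2 differences of the Rac inhibitors ran there from -2.70 ± 1.15 to 0.31 ± 0.18 (SE). With FAM3C KO and shPCBP1 fitted alone, 1048 of 12644 genes passed, and the list genes were not read in that fit. Of 3 further subunits and paralogs, Wasf3, Abi3 and Nckap1l, only Abi3 reached the level filter. Abi3 was at 10.8 CPM in the unaltered line, 12.4, 18.5 and 18.8 CPM in CT clones 1, 2 and 3 and 6.82, 5.18 and 6.03 CPM in the LIFR KO clones in the same order. All 3 LIFR KO clones lay below the controls, as was so for 13.2% of all genes tested. It passed the threshold in LIFR KO (-1.28 ± 0.30, SE, adjusted p = 0.0501), but not with clones 2 and 3 left out (-1.09, adjusted p = 0.368) or with the GC correction (-0.62, adjusted p = 0.296).

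In LIFR KO, where 0.911% of all genes were called higher and 5.55% lower, the Rac GTPases and activators had 1 of 21 tested genes higher and 2 lower, namely Prex2, a Rac exchange factor (1.12 ± 0.19), and Baiap2, which links Rac to WAVE2 (-0.95 ± 0.16), and Vav2 (-0.65 ± 0.16). Of the Rac inhibitors 1 of 10 was lower (Racgap1, -0.46), and of the genes of filament elongation and capping 2 of 15 were lower, the formins Fmnl1 (-1.02) and Fmnl3 (-0.72). The 10 genes of the Arp2/3 complex, the target of WAVE, the 7 of its inhibitors, the 12 other nucleation-promoting factors, the 14 of actin turnover and the 6 translation partners of CYFIP had none past the threshold. Without LIFR KO clones 2 and 3 none of these 6 genes passed it, with the same signs (adjusted p = 0.072 to 0.553), and with the GC correction none did either (adjusted p = 0.0878 to 0.440). The size of the difference stayed close for Racgap1 (-0.49 without those clones and -0.44 with the correction) and for Prex2 (0.91 and 0.86). It was smaller for Baiap2 (-0.57 and -0.39), Fmnl1 (-0.66 and -0.45), Fmnl3 (-0.39 and -0.26) and Vav2 (-0.23 and -0.13).

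In Dataset 2, Abi3 did not pass the threshold (-0.22, adjusted p = 0.168 in limma). The other 8 lists had genes past it in both directions, beside 80.1% of all genes. The Arp2/3 complex had 6 of 9 genes higher and 3 lower, led by its 2 actin-related subunits in opposite directions, Actr2 (0.60 ± 0.02) and Actr3 (-0.38 ± 0.03), and only Actr2 had a fold of at least 1.5. The Rac GTPases and activators had 9 of 21 higher and 7 lower. The ELMO genes, whose proteins work with DOCK exchange factors, parted: Elmo1 was at 2.32 and 2.32 CPM in NMuMG and 8.53 and 8.22 CPM in shPCBP1, and Elmo3 at 2.81 and 2.66 against 0.681 and 0.536 CPM. Of the Rac inhibitors 5 of 9 were higher and 4 lower, with Srgap3 at 0.124 and 0.189 against 3.67 and 3.95 CPM. The elongation and capping genes had 7 of 15 higher and 5 lower, with Fmnl1 from 0.0001 and 0.0190 to 2.87 and 3.79 CPM. Srgap3 and Fmnl1 reached the level filter only through the shPCBP1 libraries, so nothing is read from their direction. Actin turnover had 5 of 14 higher and 8 lower, led by Twf2 (0.88) and the slingshot phosphatase gene Ssh3 (-0.76), and other nucleation-promoting factors 4 of 11 higher and 6 lower, led by Nckipsd (-0.72), Wipf2 (0.69) and Wasl (-0.67). The Arp2/3 inhibitors had 2 of 5 higher and 3 lower, among them Arpin, which competes with WAVE for Arp2/3 (-0.53). Of the CYFIP translation partners 3 of 6 were higher, Fmr1 (0.23) among them, and 1 lower, Fxr1 (-0.43).

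**Figure D5:**
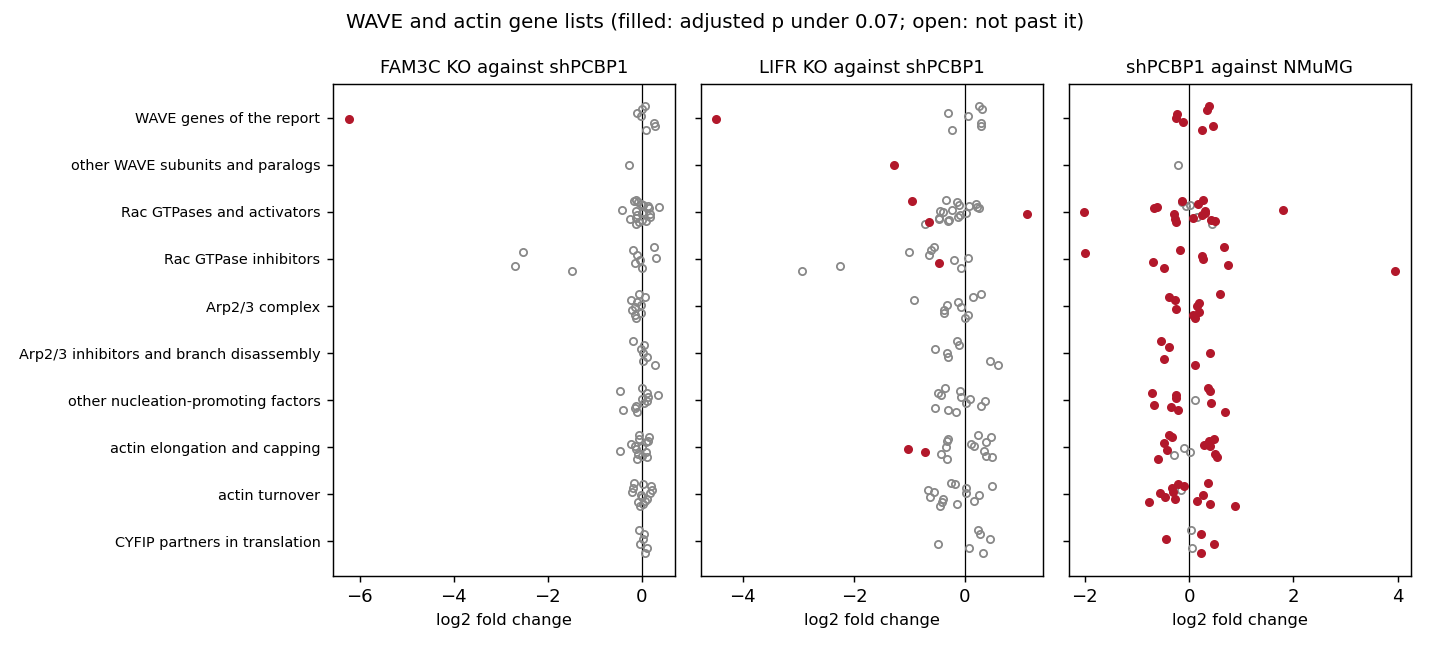
Log2 fold change of each tested gene of the WAVE list and of 9 lists of actin and Rac genes (rows) in the 3 comparisons, filled where the adjusted p was under 0.07 and open where it was not. In FAM3C KO and LIFR KO, Cyfip2 lies farthest left at -6.24 and -4.48. Cyfip2 and Fmnl1 are left out of the Dataset 2 panel, since at least 1 NMuMG library lists each at 0.0001 CPM.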

How the data were processed

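RNA-seq of 15 libraries was used. Per the labels and the methods of the study, ribosomal RNA was depleted, directional libraries were sequenced in pairs of 150 bases, and reads were processed in Partek Flow with Bowtie2 on GRCm38. The deposited tables held CPM per gene and library, normalised by the authors for library size. For Dataset 2, 3 further columns, the authors' mean CPM of each group and their fold ratio, were not used. Depth was read only from the lowest CPM of each library, and the 2 tables were not merged. Coordinates in the Dataset 1 table differed from GRCm38 for most genes, so those of GENCODE M21 (GRCm38) were used.

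CPM were tested on log2(CPM + 0.1), over genes whose mean reached 0.5 CPM, with limma 3.58.1 (trended eBayes, R 4.3.3) and Benjamini-Hochberg adjustment over all genes tested, at the study's threshold of 0.07. Dataset 1 was fitted over shPCBP1, FAM3C KO and LIFR KO, without the single double KO library, and Dataset 2 apart. For LIFR KO, 8 exact two-sided permutation tests (scipy 1.17.1) were run, with no adjustment. Only the LIFR KO and Dataset 2 comparisons were tried on simulated data, which were drawn gene by gene and held no GC shift. Fold changes on this scale understate those of low genes. The members and lists were chosen with earlier results of these data known. Named genes were the 8 members, the targeted genes, at most 4 genes of a list by size of change among those past the threshold, all listed genes within 1 Mb of Cyfip2 and Cyfip1, and the 5 genes most like Cyfip2. The alternatives were 2 other scalings, a pseudocount of 1 CPM, filters at 0 and 2 CPM, a threshold of 0.05, a replicate block, each replicate left out, the 2 groups alone, LIFR KO clones 2 and 3 left out, a loess GC correction (span 0.3) and, for Dataset 2, a fold of at least 1.5. The use of the clone 2 and 3 and GC alternatives on list genes was added after seeing the data.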

Additional observations from a re-analysis of the deposited data

Results flagged for a closer look

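Of 25 genes (the members, Fam3c, Lifr and the neighbours of Cyfip2 and Cyfip1) read over the 4 shPCBP1 libraries, Wasf2 alone had a library set apart by Dixon's rule: CT clone 3 was at 178.653 CPM, below the other 3 at 185.8 to 185.9 CPM. The rule marks about 1 in 20 groups by chance, and the gap is a small part of the level.

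The double KO library, which no comparison used, was above every shPCBP1 library in 4 members: Wasf1 at 23.0464 CPM, Nckap1 at 160.106 CPM, Abi1 at 103.091 CPM and Abi2 at 101.975 CPM. It was below every shPCBP1 library in 3 members, Cyfip2 at 0.0937 CPM, Wasf2 at 152 CPM and Brk1 at 34.3 CPM. Of all 12621 genes tested, 26.0% lay above and 53.8% below the range of the shPCBP1 libraries in it, so such a position was common. It is a single library with the GC shift described above. After the GC correction, the log2 deviations of the 4 higher members from the shPCBP1 mean were 0.78, 0.40, -0.01 and 0.21. Those of the 3 lower members, Cyfip2, Wasf2 and Brk1, were -6.55, 0.30 and -0.19, so Wasf2 turned from -0.27 to above the mean. The part of the GC shift in these values was not tested beyond that.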

How the results depend on the processing

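The count of members past the threshold in FAM3C KO went from 1 to 0 with quantile normalization, median-ratio rescaling, a filter at 2 CPM, a pseudocount of 1 CPM, a threshold of 0.05 and the replicate block. The count in LIFR KO went from 1 to 0 with median-ratio rescaling, quantile normalization, a threshold of 0.05, the replicate block, the 2 groups alone and the GC correction. Leaving out 1 library at a time gave 0 to 1 in FAM3C KO and 0 to 6 in LIFR KO. In Dataset 2 this leaves 1 library in a group, and Cyfip2 was no longer tested without either shPCBP1 library. A fold of at least 1.5 left 1 member there, Cyfip2, whose fitted fold depends on the pseudocount. Cyfip2 reached the level filter of Dataset 2 only through the shPCBP1 libraries, so nothing is read from that call. Where a group had 1 library left, it was assumed to vary like the others. In Dataset 1, Cyfip2 was lower in each setting (-6.77 to -4.37 in FAM3C KO, -6.08 to -3.29 in LIFR KO), and its side of the threshold moved. Cyfip2 was chosen for its low value in FAM3C KO, and both contrasts use the same shPCBP1 libraries. These ranges are therefore a description and carry no test. Same-numbered libraries of different groups correlated at -0.181 to 0.154 in Dataset 1 and 0.051 in Dataset 2, so the numbers did not pair them. With the replicate block, 0 members passed in FAM3C KO and in LIFR KO, 8 passed in Dataset 2, and Cyfip2 was at -6.77 and -5.01. Directions that turned were small: in FAM3C KO, Abi2 to -0.0315 with the replicate block, -0.0197 with the GC correction and -0.0315 to 0.0503 over left-out libraries, and Cyfip1 ran from -0.0478 to 0.0132 over left-out libraries. In LIFR KO without clones 2 and 3, Wasf2 turned to 0.0502, Nckap1 to -0.0916 and Abi1 to -0.29, and Wasf2 to 0.19 with the GC correction. Over all genes, the 39 called in FAM3C KO became 3 (without CT clone 1) to 1060 (LIFR KO clones 2 and 3 left out), and the 816 in LIFR KO became 5 (without CT clone 2) to 7234 (without LIFR KO clone 1). The median of all genes in LIFR KO was -0.16, -0.01 with median-ratio rescaling and 0.01 with quantile normalization, and genes higher and lower numbered 115 and 701, 170 and 288, and 248 and 367. The causes were not tested. Low levels of Cyfip2 in KO clones lie close to the lowest listed values, so their order was not read.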
